A study of Mus musculus with 6 samples.

Results

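Integrins are cell surface receptors made of 1 alpha and 1 beta chain. The 10 genes described here encode haematopoietic integrin chains (Itga4, Itga5, Itga6, Itga9, Itgal, Itgam, Itgav, Itgb1, Itgb2 and Itgb7). They were chosen by symbol from the 49997 genes of the count table, and all 10 were found and passed the filter on low counts. RNA was measured in long-term haematopoietic stem cells (LT-HSCs) of the bone marrow of 4-month-old C57BL/6J mice, sorted by flow cytometry into a population with low and one with high Asrij, the protein of the gene Ociad1, with 3 libraries each. Both groups share tissue, strain and age. The sample labels give only the strain as genotype and list no agent. The name of the count table carries the tag ArjKI, which no label explains, so an allele shared by both groups cannot be read from the labels. They also do not say how Asrij was read in the sort, or whether a library holds 1 mouse or several.

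Beta 1 is the common partner of alpha 4, alpha 5, alpha 6, alpha 9 and alpha V, and its dimers bind matrix proteins such as fibronectin and laminin or the cell surface ligand VCAM1. Beta 7 pairs with alpha 4 as a receptor for MAdCAM1. Beta 2 pairs with alpha L (LFA-1) and alpha M (Mac-1, CD11b) on leukocytes and binds ICAM proteins. Stem cells are held in the marrow and return to it after transplantation in part through alpha 4 beta 1, and alpha 6 is a laminin receptor chain.

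Levels are given in CPM, a gene's share of all counts of its library after TMM scaling, and are listed in the order of replicates 1 to 3. Fold changes are log2 values of Asrij high relative to Asrij low, each with its standard error (SE). Each adjusted p comes from edgeR (quasi-likelihood test, Benjamini-Hochberg over the 21445 genes tested), and a gene passed the test, or was called, where it was under 0.05. Library totals ran from 24707012 to 46240743 counts in Asrij low and from 62732782 to 72855125 in Asrij high. Ociad1, the gene of the sort, rose from 51.6 ± 5.72 to 80.3 ± 5.76 CPM (SD, n = 3, fold change 0.64 ± 0.16, adjusted p = 0.0115). It did not pass when Asrij high replicate 1 was left out (adjusted p = 0.0831), with upper quartile factors (0.0834) or with library totals as the only scaling (0.133, the alternatives giving 0.00559 to 0.133). Of 10 stem cell marker genes, 9 were lower in Asrij high, beside 17.7% of all genes tested, and Mllt3 did not pass. Procr fell from a mean of 34.3 to 4.06 CPM and Slamf1 from 32.1 to 6.17 CPM. The summed level of the 10 markers was 1476 to 1801 CPM in Asrij low and 516 to 800.1 CPM in Asrij high. Kit held most of the sum in each Asrij high library, at 373, 456 and 305 CPM. Ly6a was at 13.2, 11.8 and 4.59 CPM in Asrij low and at 1.08, 2.51 and 2.4 CPM in Asrij high. The sum in Asrij high thus rests mainly on Kit and does not show what share of the cells were stem cells. The 10 top genes held 19.4% of the counts of Asrij low replicate 3 and 5.15% to 9.99% of those of the other libraries. Fewer cells of a type and less RNA per cell cannot be told apart in bulk RNA.

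Of the 10 integrin chains, 5 fell and 2 rose in Asrij high. Itga9, Itgb7, Itgal, Itgav and Itga6 fell, by 9.81-fold for Itga9 and between 2.26-fold and 3.52-fold for the other 4. Itgb1 and Itga5 rose, by 1.68-fold and 1.62-fold. With library totals as the only scaling, with upper quartile factors or without Asrij high replicate 1, the rises numbered 0, and 1 without any other single library, whereas the falls numbered 5 or 6 in each of these fits. Itga4, Itgb2 and Itgam did not pass the test. Of all genes tested, 39.4% passed in either direction, 21.7% as higher and 17.7% as lower in Asrij high. The 2 rises among 10 genes are near the share of rises over all genes. The 5 falls among 10 are a larger share than that of falls over all genes. The 10 genes were chosen with earlier results of these data known, so these shares are not independent support. The median fold change of the 10 genes was -0.93, beside -0.02 over all genes tested. The Asrij high libraries lay wholly above the Asrij low libraries for 3 of the 10 genes and wholly below for 5, beside 30.2% and 24.8% of all genes tested (55% in either direction). Summed over the 10 genes, the level was 1355 ± 19.5 CPM in Asrij low against 1252 ± 105 CPM in Asrij high (n = 3 each), and the groups overlapped. Past the threshold and at least 2-fold changed were the 5 falls, beside 28.6% of all genes in either direction.

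**Figure D1:**
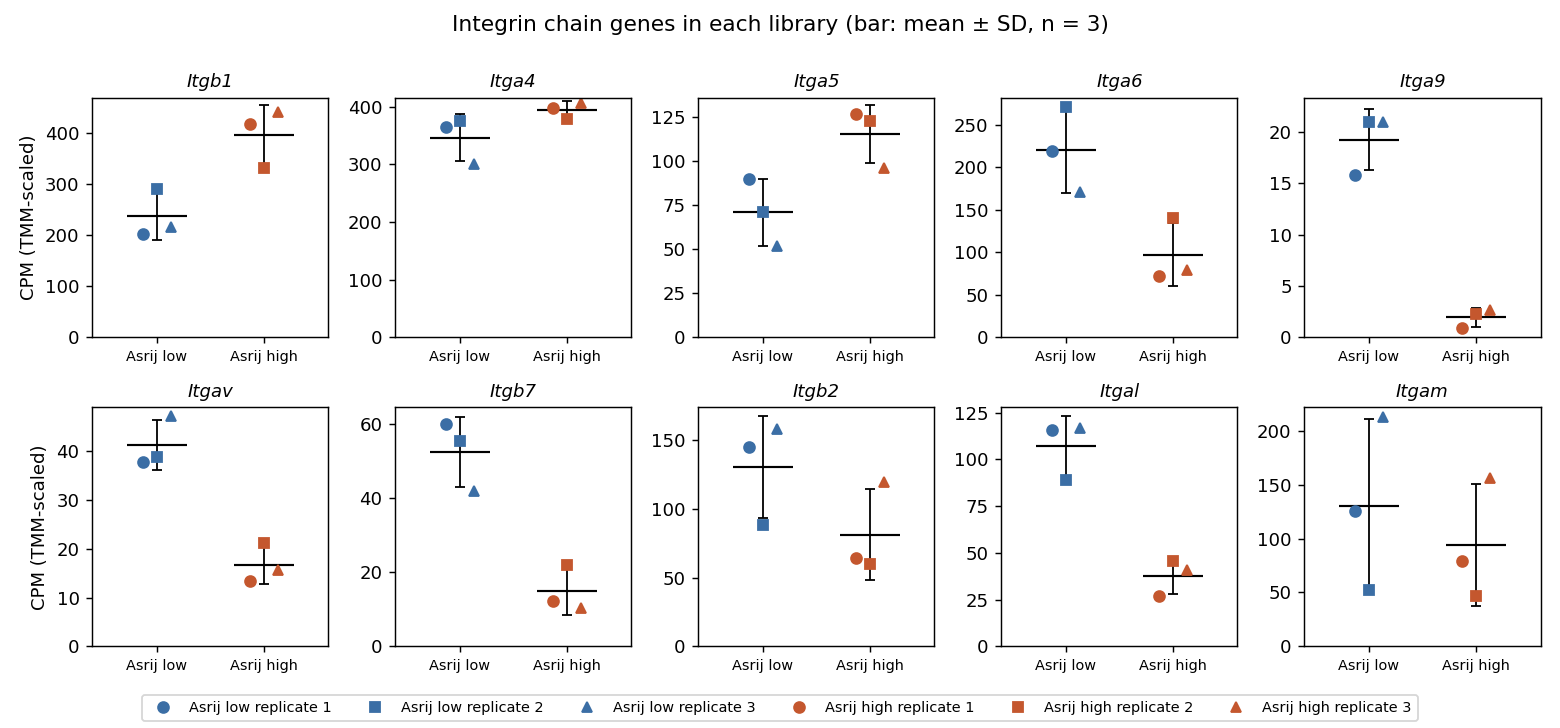
CPM of each integrin chain gene in the 3 Asrij low (blue) and 3 Asrij high (orange) libraries, with symbols for replicates and a bar for the mean ± SD. Itgb1 and Itga5 lay higher in every Asrij high library, Itga6, Itga9, Itgav, Itgb7 and Itgal lay lower in every one, and Itgb2 and Itgam overlapped.

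Promoters are shown for the chains that passed the test and whose RefSeq entry (GRCm38.p6, the assembly of mm10, which the submitters' processing notes name) lies at or near the annotated gene start, since these are the genes that moved together or apart. Of the 10 genes, 7 matched the table (not Itga6, Itgal and Itgb2), and the entry of Itga9 lay inside the gene and is not shown. Each window of 300 bases runs 5′ to 3′ on the gene's strand, chr8:128685404-128685703 (plus strand) for Itgb1, chr15:103366742-103367041 (minus) for Itga5, chr2:83724147-83724446 (plus) for Itgav and chr15:102231886-102232185 (minus) for Itgb7. Capitals mark matches on either strand to GGGCGG (SP and KLF factors), GGAAGT (ETS), TGTGGT (RUNX), the letters AGATAA known for binding by erythroid GATA factors, or the core promoter element TATAAA, and no matches overlapped.
Itgb1: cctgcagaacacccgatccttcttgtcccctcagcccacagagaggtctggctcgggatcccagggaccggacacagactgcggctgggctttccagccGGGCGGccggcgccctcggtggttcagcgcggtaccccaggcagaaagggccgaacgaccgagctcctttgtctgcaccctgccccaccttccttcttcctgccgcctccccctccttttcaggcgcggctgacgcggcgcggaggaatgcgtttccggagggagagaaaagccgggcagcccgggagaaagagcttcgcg
Itga5: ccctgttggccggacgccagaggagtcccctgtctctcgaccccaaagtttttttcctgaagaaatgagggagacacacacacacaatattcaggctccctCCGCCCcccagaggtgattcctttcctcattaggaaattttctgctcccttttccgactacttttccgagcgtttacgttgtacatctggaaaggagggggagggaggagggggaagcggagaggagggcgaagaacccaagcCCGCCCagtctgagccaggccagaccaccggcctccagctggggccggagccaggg
Itgav: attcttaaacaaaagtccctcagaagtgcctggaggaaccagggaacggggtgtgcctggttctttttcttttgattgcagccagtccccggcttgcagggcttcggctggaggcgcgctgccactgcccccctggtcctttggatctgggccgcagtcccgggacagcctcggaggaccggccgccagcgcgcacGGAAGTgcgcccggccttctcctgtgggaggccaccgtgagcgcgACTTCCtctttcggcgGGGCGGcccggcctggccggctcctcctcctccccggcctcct
Itgb7: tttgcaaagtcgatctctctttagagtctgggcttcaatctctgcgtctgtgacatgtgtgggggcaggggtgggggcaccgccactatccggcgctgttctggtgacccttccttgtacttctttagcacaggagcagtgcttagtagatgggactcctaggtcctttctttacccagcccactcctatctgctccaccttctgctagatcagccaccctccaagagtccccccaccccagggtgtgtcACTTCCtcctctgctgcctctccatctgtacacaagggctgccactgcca
GGGCGG matched 1 time in Itgb1, 2 times in Itga5 and 1 time in Itgav, and is held by 35.7% of the 32851 promoter windows of this length in the table. GGAAGT matched 2 times in Itgav and 1 time in Itgb7, and is held by 23.8% of windows. The letters of TGTGGT (16.8% of windows), AGATAA (11.2%) and TATAAA (13.6%) did not occur in these 4 windows. Itga5, which rose, and Itgb7, which fell, lie 1.11 megabases apart on chromosome 15.

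Itgb1 encodes the beta 1 chain (chromosome 8, 128685654 to 128733200). It had 203, 291 and 217 CPM in the Asrij low libraries and 419, 332 and 442 CPM in the Asrij high libraries. The lowest Asrij high library, replicate 2, stood above the highest Asrij low library, also replicate 2. The fold change was 0.75 ± 0.20 (SE, adjusted p = 0.0144, n = 3 per group). It did not pass when Asrij low replicate 1 was left out (adjusted p = 0.0581), nor without Asrij high replicate 1 (0.0508) or Asrij high replicate 3 (0.0597), with library totals as the only scaling (0.0651) and with upper quartile factors (0.0529). The alternatives gave adjusted p-values of 6.74e-04 to 0.0651 and fold changes of 0.48 to 0.95.

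Itga5 encodes alpha 5, which with beta 1 forms the classical fibronectin receptor (chromosome 15, 103344286 to 103366763). Its levels were 90.0, 71.0 and 52.1 CPM in Asrij low and 127, 123 and 96.4 CPM in Asrij high. The groups did not overlap, but the gap between Asrij low replicate 1 and Asrij high replicate 3 was small. The fold change was 0.70 ± 0.22 (SE, adjusted p = 0.0301). It did not pass without Asrij low replicate 2 (adjusted p = 0.0563) or 3 (0.0968), without Asrij high replicate 1 (0.114) or 2 (0.053), or with library totals or upper quartile factors (0.203 and 0.136, the alternatives giving 0.00284 to 0.203). The calls of both rising chains therefore changed with the scaling and with single libraries.

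Itga4 encodes alpha 4, the chain that both beta 1 and beta 7 can join (chromosome 2, 79255426 to 79333123). It had 365, 375 and 299.7 CPM in Asrij low against 398, 379 and 407 CPM in Asrij high. Every Asrij high library lay above every Asrij low library, yet only by 4.48 CPM at the nearest pair. The fold change of 0.19 ± 0.16 did not pass the test (adjusted p = 0.377), its 95% interval ran from -0.17 to 0.55, and its sign turned with library totals (-0.08) and upper quartile factors (-0.08). It was the steadiest of the 10 genes in Asrij high, with a coefficient of variation of 3.61%. Its exons share bases with Cerkl on the opposite strand, which had 1990 counts over the 6 libraries against 110961 for Itga4. Exons of Itgam share bases with Gm49368 on the same strand, and those of Itgav with Gm13684 on the opposite strand. Neither Gm49368 nor Gm13684 is among the genes counted.

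Itga6 encodes alpha 6, a laminin receptor chain (chromosome 2, 71745616 to 71858416). The Asrij low libraries held 218, 271 and 171 CPM and the Asrij high libraries 72.0, 140.3 and 79.2 CPM. All Asrij high libraries were lower, and replicate 2 of Asrij high stood nearest to the Asrij low group. The fold change was -1.18 ± 0.28 (adjusted p = 0.00891). Within each group the libraries stood in the same order for Itga6 as for the summed stem cell markers, whose values were 1537, 1801 and 1476 CPM in Asrij low and 516, 800.1 and 547 CPM in Asrij high. Each chain was compared with every marker list, and orders of 3 libraries can match by chance. The part of these markers in the result was not tested.

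Itga9 encodes alpha 9, a partner of beta 1 that binds tenascin C and VCAM1 (chromosome 9, 118606690 to 118901003). It had the largest fold change of the 10 genes, from 15.8, 21.0 and 21.0 CPM in Asrij low to 0.918, 2.31 and 2.64 CPM in Asrij high. These levels rest on 854, 605 and 544 counts in Asrij low and on 50, 147 and 174 counts in Asrij high. The fold change was -3.29 ± 0.41 (adjusted p = 5.91e-04), and over the alternatives it stayed between -3.63 and -3.0 with every adjusted p at or under 0.00535.

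Itgav encodes alpha V, a chain of vitronectin receptors that also joins beta 3 and beta 5 (chromosome 2, 83724397 to 83806916). It was at 37.7, 38.9 and 47.2 CPM in Asrij low and at 13.3, 21.3 and 15.7 CPM in Asrij high, with no overlap. The fold change was -1.30 ± 0.23 (adjusted p = 0.00253). Genes of marrow stroma and endothelium fell beside it, 8 of 10 in the list (4 without Asrij high replicate 1), against 17.7% of all genes tested. The summed levels of these genes were 350.0, 284 and 786 CPM in Asrij low and 30.8, 91.5 and 53.2 CPM in Asrij high. Pdgfrb and Pecam1 held most of the sum in replicate 2 of both groups, with 104 and 82.4 CPM in Asrij low and 38.1 and 36.7 CPM in Asrij high. Cxcl12 held most of it in Asrij low replicate 3, at 493 CPM. Another gene of the list, Col3a1, had no count in Asrij high replicate 2. In Asrij low replicate 3, where the summed markers were highest, Itgav was highest too, but the other libraries of Asrij low stood in a different order. In Asrij high, Itgav stood in the order of these markers and also in that of the stem cell markers. Itga9 was about as high in Asrij low replicate 2 as in replicate 3. The part of stromal or endothelial RNA in these falls was not tested. Without Asrij low replicate 3 the fold changes were -1.21 for Itgav and -3.24 for Itga9, both past the threshold (adjusted p = 0.00926 and 0.0037, the alternatives giving at most 0.0122 and 0.00535).

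Itgb7 encodes beta 7 (chromosome 15, 102215995 to 102231944). Its levels were 59.9, 55.4 and 42.0 CPM in Asrij low and 12.3, 22.1 and 10.3 CPM in Asrij high. The groups were well apart, and Asrij high replicate 2 was again the highest of its group. The fold change was -1.81 ± 0.30 (adjusted p = 0.00195). In the 14 alternatives it ran from -2.37 to -1.66, and each one passed the threshold.

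Itgal encodes alpha L, the LFA-1 chain that binds ICAM1 (chromosome 7, 127296260 to 127335138). It had 116, 88.9 and 117 CPM in Asrij low and 26.9, 45.7 and 41.1 CPM in Asrij high. No Asrij high library reached the Asrij low range, and the fold change was -1.50 ± 0.22 (adjusted p = 0.00123). Both Itgb7 and Itgal are also expressed by lymphocytes. Of 10 B, T and NK cell marker genes, 8 were tested and 5 of them fell, against 17.7% of all genes tested. Their summed level was 87.9, 121 and 111 CPM in Asrij low and 54.7, 75.3 and 35.1 CPM in Asrij high, of which the cytotoxic granule gene Nkg7, a marker that did not pass the test, held 19.0 to 64.2 CPM. The T cell receptor complex genes Cd3e and Cd3g were at 0 in Asrij low replicates 1 and 2 and reached at most 0.463 CPM elsewhere, and Cd3d had no count in Asrij high replicate 1. The libraries did not stand in the order of this sum for Itgal in either group or for Itgb7 in Asrij low. They did for Itgb7 in Asrij high. In Asrij low, Itgal was lowest in replicate 2, where the sum was highest, and Itgb7 was highest in replicate 1, where the sum was lowest. Orders of 3 libraries can match or differ by chance. The part of lymphoid RNA in the falls of Itgb7 and Itgal was not tested.

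Itgb2 encodes beta 2, the shared chain of the leukocyte integrins (chromosome 10, 77530252 to 77565708). It had 145, 88.2 and 158 CPM in Asrij low and 64.0, 60.0 and 119 CPM in Asrij high. The groups overlapped, since Asrij high replicate 3 stood above Asrij low replicate 2. The fold change of -0.69 ± 0.30 did not pass the threshold (adjusted p = 0.0998). It passed when Asrij high replicate 3 was left out (-1.13, adjusted p = 0.0161) or Asrij low replicate 2 was (-0.87, 0.05), and with library totals (-0.96, adjusted p = 0.033) or upper quartile factors (-0.97, 0.0427), the alternatives giving 0.0161 to 0.463. A size of change between -1.37 and -0.01 is covered by its 95% interval.

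Itgam encodes alpha M, the CD11b antigen of neutrophils and monocytes (chromosome 7, 128062640 to 128118491, 0.728 megabases from Itgal). It had 125, 52.3 and 213 CPM in Asrij low and 78.8, 46.4 and 156 CPM in Asrij high. Within each group its highest library over its lowest was the largest fold of the 10 genes (4.06 in Asrij low and 3.37 in Asrij high). The highest library of each group was replicate 3 and the lowest replicate 2, and the groups overlapped. The fold change of -0.47 ± 0.56 did not pass the test (adjusted p = 0.545, 95% interval -1.78 to 0.84), and its sign turned without Asrij low replicate 3 (0.05, adjusted p = 0.954, the alternatives giving 0.107 to 0.954).

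For both Itgam and Itgb2, libraries within each group stood in the order of the summed neutrophil markers. Those 10 genes, which include the granule genes Ltf, Camp and Ngp, added up to 2583, 898 and 3811 CPM in Asrij low and 2184, 1062 and 6071 CPM in Asrij high. Each had counts in every library. Of the list, 4 members fell, Mmp9 and Cxcr2 among them (2 fell without Asrij high replicate 1), and 6 did not pass the test. Summed erythroid markers had the same order, at 27054, 11095 and 80029 CPM in Asrij low and 8623, 5028 and 8684 CPM in Asrij high. Most of that sum was from 4 globin genes, near-identical copies among them, which fell with the haem synthesis gene Alas2 (5 falls of 10, and 0 without any 1 of the Asrij high libraries). Another 4 of the list rose, the carbonic anhydrase gene Car1 from a mean of 75.4 to 1250 CPM, Ermap from 54.2 to 866 CPM, the erythroid factor gene Klf1 from 39.3 to 158 CPM and the erythropoietin receptor gene Epor from 34.4 to 153 CPM. Over all genes tested 17.7% fell and 21.7% rose. Each chain was compared with every marker list, and orders of 3 libraries can match by chance. In Asrij low, Itgam and Itgb2 also stood in the order of the summed monocyte and macrophage markers and of the stromal markers. Itgal stood in the order of the stromal markers in both groups. The part of myeloid or erythroid RNA in the values of Itgam and Itgb2 was not tested.

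**Figure D2:**
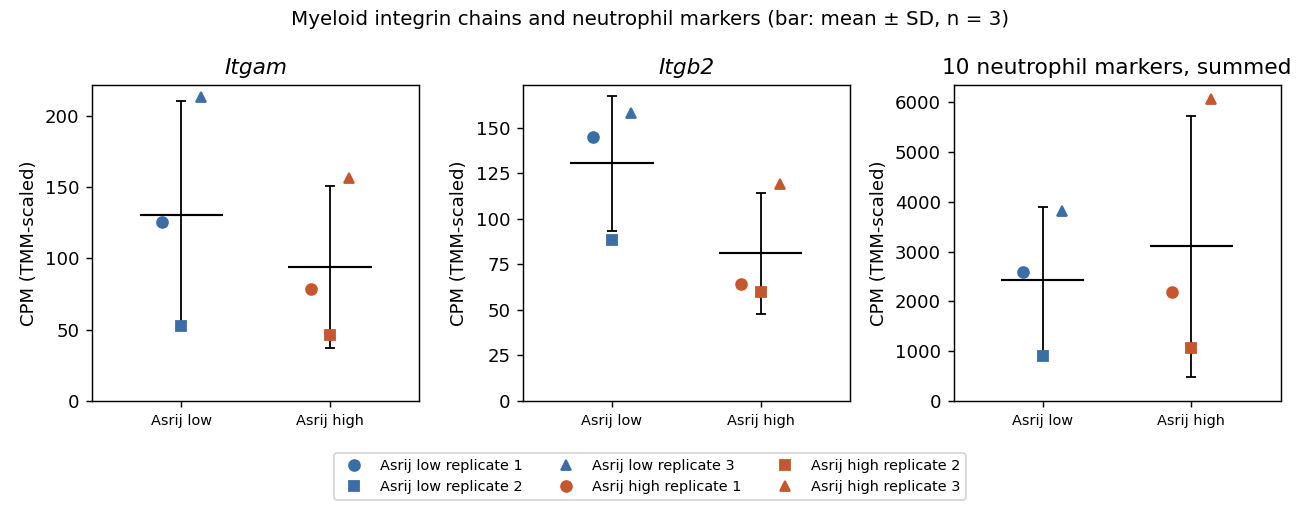
CPM of Itgam and Itgb2 and summed CPM of 10 neutrophil marker genes in each library, with the mean ± SD of 3 libraries. In both groups replicate 2 (square) was lowest and replicate 3 (triangle) highest in all 3 panels.

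Per kilobase of the longest protein-coding GENCODE M21 transcript, a scale on which genes can be compared, Itgb1 had the highest mean of the 10 chains in both groups. Its level was 62.1 ± 12.3 CPM per kilobase in Asrij low and 104 ± 15.3 CPM per kilobase in Asrij high (SD, n = 3). In Asrij low it was followed by Itga6 (51.0 ± 11.6), Itgb2 (43.9 ± 12.5), Itga4 (35.5 ± 4.17), Itgam (27.8 ± 17.1), Itgal (20.5 ± 3.03), Itgb7 (19.5 ± 3.48) and Itga5 (16.2 ± 4.33 CPM per kilobase). Each of these neighbours in the order overlapped the next over the 3 libraries, so their order is not fixed beyond the spread. Itgav (5.85 ± 0.737) and Itga9 (2.74 ± 0.425 CPM per kilobase) stood below them without overlap.

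The order differed in Asrij high. Itgb1 stood apart from Itga4, which was second at 40.4 ± 1.46 CPM per kilobase. Itgb2 (27.3 ± 11.1), Itga5 (26.3 ± 3.78), Itga6 (22.6 ± 8.71) and Itgam (20.05 ± 12.1) came next, each overlapping its neighbour. Itgal (7.26 ± 1.88) and Itgb7 (5.55 ± 2.35) overlapped each other and stood below Itgam without overlap. Itgav (2.38 ± 0.575) and Itga9 (0.279 ± 0.130 CPM per kilobase) were again the lowest. Transcript choice and mapping can shift a gene's place on this scale, since the authors' annotation is not given in the sources used here.

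**Figure D3:**
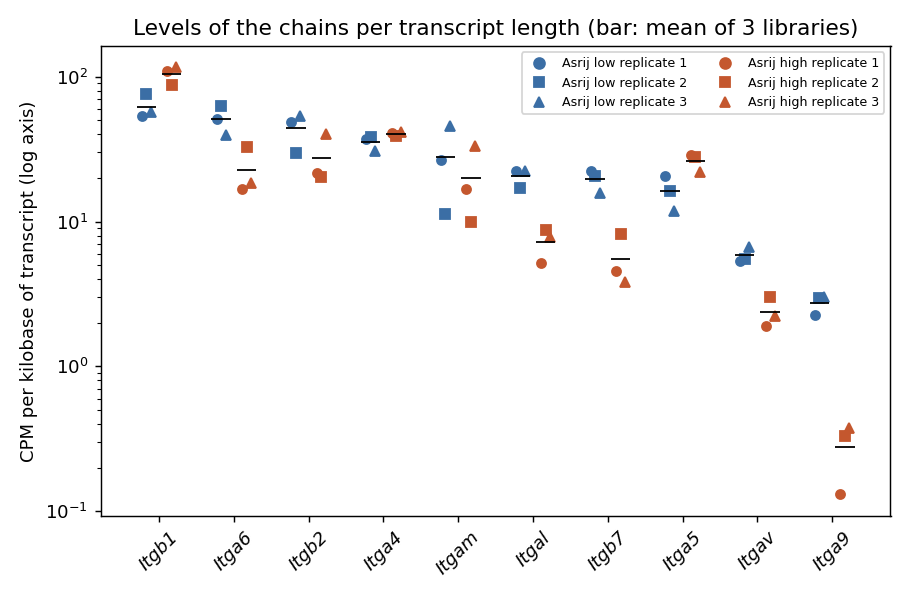
CPM per kilobase of transcript (log axis) of the 10 chains in each library, ordered by the Asrij low mean, with a bar for the mean of 3 libraries. Of these 10, Itgb1 stood alone at the top in Asrij high, and Itga9 at the bottom in both groups.

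Ratios of the counts of 2 chains within a library do not depend on how libraries are scaled. For 12 ratios, the log2 ratio was compared between the groups with a two-sided exact permutation test, whose smallest p with 3 against 3 libraries is 0.1 (0.171 after Benjamini-Hochberg adjustment over the 12), so none could pass 0.05. The Itgb7 to Itgb1 ratio was 0.294, 0.191 and 0.193 in Asrij low and 0.0294, 0.0666 and 0.0234 in Asrij high. The mean of its log2 was 2.63 units lower in Asrij high, a 6.19-fold change with no overlap (exact p = 0.1). The Itga4 to Itgb7 ratio went from 6.08, 6.77 and 7.14 to 32.4, 17.2 and 39.4 (log2 difference 2.07, exact p = 0.1).

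Alpha chains of the beta 1 group differed from each other. The Itga4 to Itgb1 ratio was 1.79, 1.29 and 1.38 in Asrij low and 0.952, 1.14 and 0.920 in Asrij high (log2 difference -0.56, no overlap, exact p = 0.1). For Itga6 the ratio to Itgb1 was 1.07, 0.931 and 0.786 against 0.172, 0.423 and 0.179 (log2 difference -1.97, exact p = 0.1). The ratios of Itga9 and Itgav to Itgb1 differed by -4.17 and -2.07, again without overlap (exact p = 0.1 each). By contrast, the Itga5 to Itgb1 ratio overlapped, with 0.442, 0.244 and 0.240 in Asrij low and 0.303, 0.370 and 0.218 in Asrij high (log2 difference -0.03, exact p = 1), and its sign turned when Asrij low replicate 1 (0.26) or Asrij high replicate 3 (0.18) was left out. All ratios to Itgb1 share its counts and are not independent.

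Among the leukocyte integrins, the Itgb2 to Itgb1 ratio was 0.712, 0.304 and 0.728 in Asrij low and 0.153, 0.181 and 0.269 in Asrij high (log2 difference -1.47, no overlap, exact p = 0.1). The Itgal to Itgb2 ratio overlapped between the groups (log2 difference -0.81, exact p = 0.2), as did Itgam to Itgb2 (0.29, exact p = 0.7), Itgal to Itgam (-1.10, exact p = 0.3) and Itga5 to Itga4 (0.53, exact p = 0.2). The Itgam to Itgb2 difference was close to 0 without Asrij low replicate 2 (-0.0014).

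**Figure D4:**
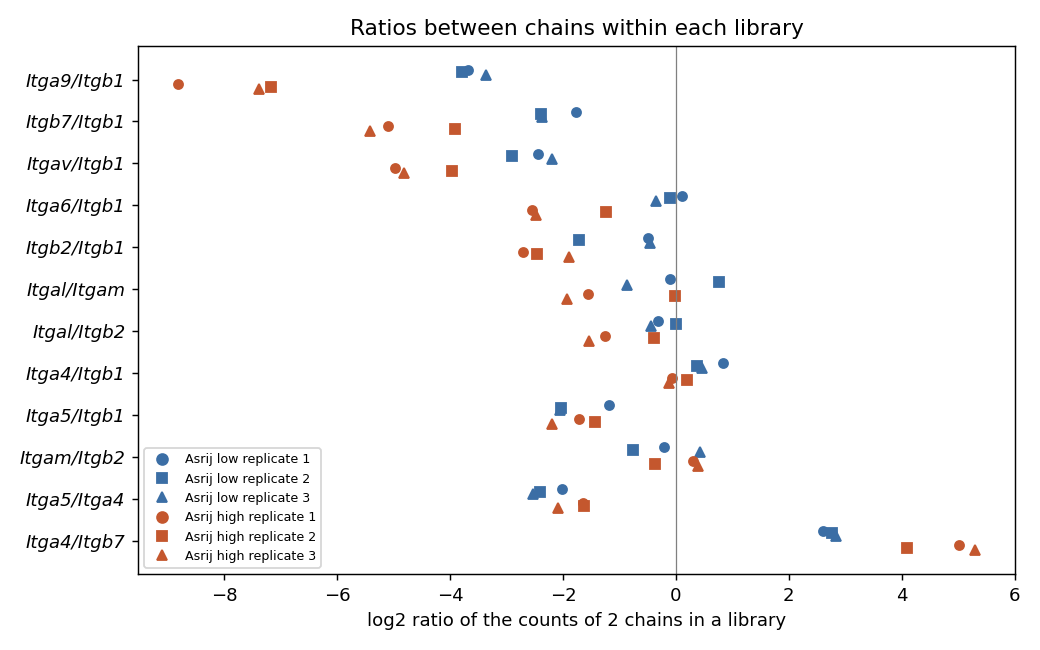
Log2 ratio of the counts of 2 integrin chains in each library for 12 pairs, with Asrij low in blue and Asrij high in orange. The Itga9, Itgb7, Itgav, Itga6, Itgb2 and Itga4 ratios to Itgb1 were lower in every Asrij high library, while the Itga5 to Itgb1 ratio overlapped.

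Within Asrij high, replicate 2 held the highest level of 4 of the 5 chains that fell (Itga6, Itgal, Itgav and Itgb7) and the lowest level of Itgb1. With this library and Asrij low replicate 3 both left out, the 5 falls all passed the threshold and 1 of the 2 rises did.

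The other chains of the family were read from the same fit. Of 16, 14 were tested (Itga7 and Itgb8 had too few counts), 6 fell and 1 rose, beside 17.7% and 21.7% of all genes, with a median fold change of -1.42 beside -0.02 over all genes. Itgax, the CD11c chain of dendritic cells and macrophages, fell from 4.15 ± 2.22 to 0.268 ± 0.137 CPM (n = 3, adjusted p = 0.00215), and the related Itgad from 4.92 ± 3.60 to 0.333 ± 0.144 CPM (fold change -3.86, and -3.11 without Asrij low replicate 3, adjusted p = 0.00238). Itga3, a laminin receptor chain, fell from 3.60 ± 0.607 to 0.354 ± 0.0878 CPM, and Itgb5, a partner of alpha V, from 14.1 ± 1.81 to 3.12 ± 1.38 CPM (adjusted p = 0.00142 and 0.00275). Beside them, 6 of 10 monocyte and macrophage markers fell and 1 rose, the 3 C1q genes among the falls, and their summed level was 130.1, 108 and 264 CPM in Asrij low and 143, 152 and 120 CPM in Asrij high. The rise was that of Ly6c2, from a mean of 16.5 CPM in Asrij low to 82.6 CPM in Asrij high, where it held most of the sum. This rise was not called without any 1 of the Asrij high libraries. The part of macrophage RNA was not tested.

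Itgae, the alpha E chain that pairs with beta 7 and binds E-cadherin, was the other chain that rose. It had 1.41, 0.0693 and 2.39 CPM in Asrij low and 8.21, 6.85 and 7.45 CPM in Asrij high (fold change 2.54 ± 0.81, adjusted p = 0.0336). Its level in Asrij low replicate 2 rests on 2 counts, and without Asrij low replicate 3 its fold change was 3.22. It did not pass when Asrij low replicate 1 (adjusted p = 0.089) or Asrij high replicate 1, 2 or 3 was left out (0.118, 0.0664 and 0.102), nor with library totals (0.0522), upper quartile factors (0.0626) or no count filter (0.102), the alternatives giving 0.00497 to 0.118.

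Itga2b and Itgb3, which together form the platelet fibrinogen receptor, did not pass the test. Itga2b had 473, 513 and 263 CPM in Asrij low and 159, 549.9 and 128 CPM in Asrij high (fold change -0.58 ± 0.55, adjusted p = 0.443), and Itgb3 had 98.9, 140.2 and 137 CPM against 63.2, 171 and 81.8 CPM (-0.25 ± 0.34, adjusted p = 0.59). In Asrij high, replicate 2 stood far above the other libraries for both. Per kilobase, Itga2b was above Itgb1 in every Asrij low library (121 ± 39.1 against 62.1 ± 12.3 CPM per kilobase) and in Asrij high replicate 2. Without it both passed (-1.50, adjusted p = 0.00399, and -0.75, adjusted p = 0.0223, with alternatives giving 0.00106 to 0.755 and 0.0223 to 0.944). The platelet chemokine gene Pf4 was also highest there, at 89.7 CPM against 22.6 and 11.5 CPM. Of 10 megakaryocyte markers, which include these 2 chains, 1 fell (0 without Asrij low replicate 1, 3 without Asrij low replicate 2 and 5 without Asrij high replicate 2), and their summed level was 718, 779 and 598 CPM in Asrij low and 302, 903 and 293 CPM in Asrij high. Over all genes tested 17.7% fell. The part of these markers in the values of the 2 chains was not tested.

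**Figure D5:**
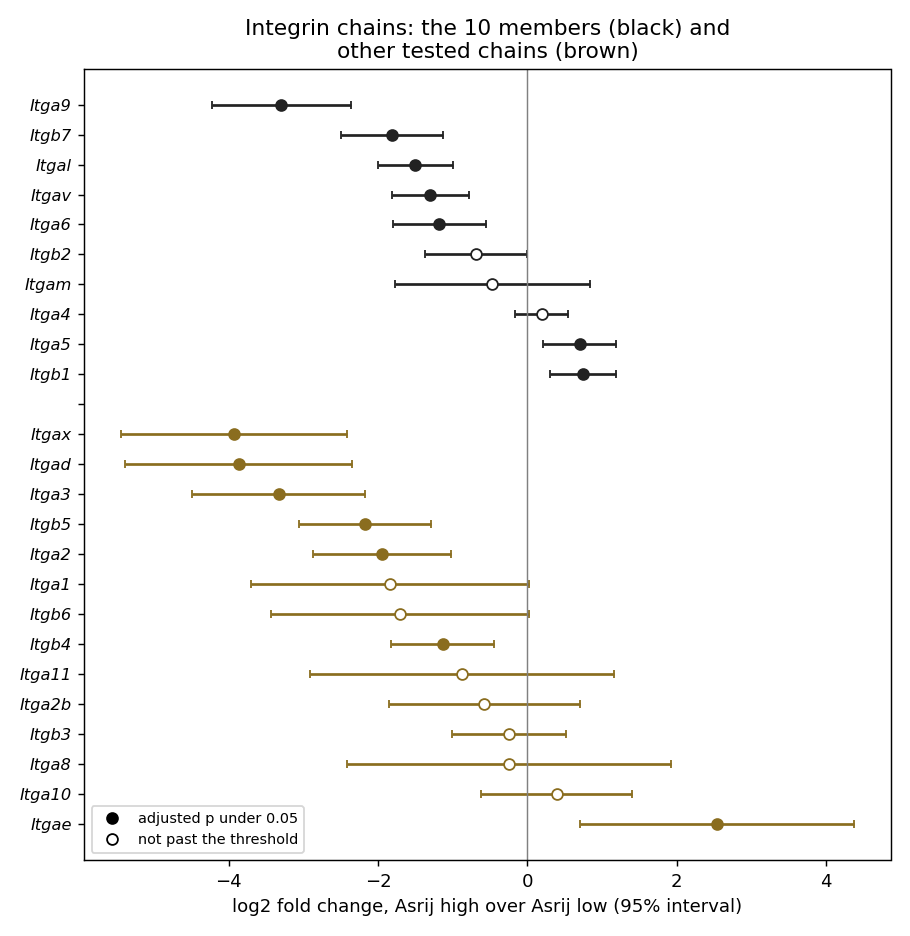
Log2 fold change (Asrij high over Asrij low) with its 95% interval for the 10 integrin chains (black) and the 14 other tested chains (brown), filled where the adjusted p is under 0.05. Itga9 lay lowest of the 10 at -3.29, and Itgae was the other chain above 0 that passed.

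Among genes that switch integrins on or off or link them to actin, more fell than rose. The list mixes these roles, so a fall in it is not always that of an activator. Of 45 in the list, 42 were tested (Fermt1, Lims2 and Skap1 were not), 19 fell and 5 rose, with a median fold change of -0.50. Over all genes tested 17.7% fell and 21.7% rose, so the falls are a larger and the rises a smaller share of this list. It too was chosen with earlier results of these data known. The falls numbered 12 when replicate 1 of either group was left out, and the rises 3 without Asrij high replicate 1 or 3 and with library totals or upper quartile factors. Tln1, the talin gene whose product binds beta chain tails, did not pass (1641 ± 27.7 against 1323 ± 138 CPM, fold change -0.31 ± 0.17, adjusted p = 0.183), though it did with library totals (-0.57, adjusted p = 0.0351) and upper quartile factors (-0.58, adjusted p = 0.0172, the alternatives giving 0.0172 to 0.354). Fermt3, the kindlin of blood cells, had 518 ± 83.4 and 463 ± 77.9 CPM (fold change -0.16 ± 0.19, adjusted p = 0.539).

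The rises in this list included Apbb1ip (RIAM), which links the GTPase RAP1 to talin. It had 70.8, 82.5 and 87.8 CPM in Asrij low and 209, 147 and 199 CPM in Asrij high (fold change 1.201 ± 0.18, adjusted p = 0.00132). The actin linkers Vcl (vinculin) and Actn4 (an alpha-actinin) rose by 0.93 ± 0.17 and 0.94 ± 0.17 (adjusted p = 0.00264 and 0.00262), and Cib1, which binds the alpha IIb tail, by 0.86 ± 0.23 (adjusted p = 0.0165). Cib1 did not pass when Asrij high replicate 1 (adjusted p = 0.112) or 3 (0.0911) was left out, nor with library totals (0.0772) or upper quartile factors (0.0742), the alternatives giving 0.00532 to 0.112. The falls included Ptk2b (PYK2, a focal adhesion kinase), from 185 ± 20.6 to 91.3 ± 9.18 CPM, the SRC family kinase gene Lyn, from 96.2 ± 2.72 to 45 ± 7.86 CPM, and the tensin gene Tns3, from 129 ± 10.97 to 58.6 ± 9.39 CPM (adjusted p = 0.00152, 0.00146 and 0.00123). Rap1gap2, which inactivates RAP1, fell from 28.1 ± 7.44 to 8.90 ± 3.51 CPM (adjusted p = 0.00387).

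Ligand genes were lower in Asrij high where they changed. Of 35, 28 were tested (Madcam1, Vtn, Lama2, Fga, Fgb, Fgg and Postn were not), and 19 fell (11 without Asrij high replicate 1), beside 17.7% of all genes. edgeR called 0 of them higher, as did DESeq2 and limma-voom, and 0 were higher at an unadjusted p under 0.05. The median fold change was -2.23. Icam1, a ligand of LFA-1 and Mac-1, fell from 37.5 ± 6.28 to 7.21 ± 3.95 CPM (adjusted p = 0.00192), and the collagen IV genes Col4a1 and Col4a2 with fold changes of -2.84 and -2.699 (adjusted p = 7.73e-04 and 0.00293), the latter -3.31 without Asrij high replicate 2. Col1a1 fell with a fold change of -4.26 (adjusted p = 0.00232), and it is also in the stromal marker list given above. It had 15.3, 6.96 and 51.3 CPM in the 3 Asrij low libraries, and without replicate 3 of them its fold change was -3.16. Fn1 (fibronectin), the ligand of alpha 5 beta 1, had 17.6, 11.1 and 59.1 CPM in Asrij low and 5.58, 4.96 and 5.67 CPM in Asrij high (fold change -2.43 ± 0.56, adjusted p = 0.00936). Asrij low replicate 3, where stromal markers were highest, held most of it. Fn1 did not pass when Asrij high replicate 1 (adjusted p = 0.0757), 2 (0.0627) or 3 (0.0526) was left out, nor with no count filter (0.0937), the alternatives giving 1.94e-05 to 0.0937. Without Asrij low replicate 3 its fold change was -1.44. Vcam1, the ligand of alpha 4 beta 1, had 24.4, 21.7 and 63.2 CPM against 34.3, 23.5 and 22.6 CPM and did not pass the test (fold change -0.44 ± 0.39, adjusted p = 0.403). Its sign turned without Asrij low replicate 3 (0.19, adjusted p = 0.598, the alternatives giving 0.168 to 0.649).

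Emc3 and Dph3 were among the genes whose pattern over the 6 libraries was most like that of Itgb1. Their centred log2 CPM differed from that of Itgb1 by a root mean square of 0.0182 and 0.0322, among 9653 genes with a mean of at least 10 CPM. For Itga4 they were Dnajc5 (0.029), Ivns1abp (0.0337) and Tmem164 (0.0339). For Itgb2 they were Map3k9 (0.0976), Gsn (0.131) and Aknaos (0.148), at larger distances.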

How the data were processed

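RNA of sorted LT-HSCs was sequenced in 6 libraries. Per the labels' protocols, ribosomal RNA was depleted and a directional kit was used, whereas the molecule field names polyA RNA. The authors deposited raw read counts per gene symbol. Reads were handled with HISAT2, Subread, SAMtools and FastQC on mm10, per the submitters' processing notes. Tool versions, the annotation and how strand and read pairs were counted were not given in the sources used here. Of nonzero counts up to 20, 72.8% to 79.4% were even, against 49.3% to 50.6% of those over 1000, so counts are not all independent molecules.

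In R 4.3.3, edgeR 4.0.16 (TMM factors, robust quasi-likelihood fit, group as the only term) was run on the 21445 of 49997 genes kept by filterByExpr (minimum count 10, total 15). CPM uses the same factors. Standard errors come from the quasi-likelihood statistic, and a pseudocount of 0.5 was added in chain ratios. Alternatives used DESeq2 1.42.0, limma 3.58.1 (voom), other scalings, no filter, a replicate block and left-out libraries. On simulated counts, 9 of 95 genes changed 2-fold and 47 of 97 changed 4-fold were recovered among 20793 genes, with 3 false calls. Changes near 2-fold could thus be missed in that setting. Far fewer genes were changed there than passed in the data, which makes the adjusted threshold stricter. These shares therefore do not measure the power of the reported test. Libraries of a group differed by more than counting noise (chi-square over its degrees of freedom, 82.5 to 183), so none was counted as a file deposited again, which does not show that they are separate samples. Since no label ties libraries to separate mice, the p-values reflect only how far these libraries spread, which may be technical.

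The 10 genes and all lists were chosen with earlier results of these data known. Named were the 10 chains, up to 4 genes a direction with the smallest p in each list (mean of at least 1 CPM), Itga2b, Itgb3, Vcam1, Fn1, Tln1, Fermt3, Ociad1 and the 3 genes nearest to Itgb1, Itga4 and Itgb2 (gene models left out), of which 1 is not reported here. Marker genes named beside a list total, Cerkl and Ly6c2 were picked after their values were seen. Gm49368 and Gm13684 are named only for shared exons. Gene positions and lengths are from GENCODE M21 (GRCm38).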

Additional observations from a re-analysis of the deposited data

How the results depend on the processing

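The 5 falls of integrin chains (Itga6, Itga9, Itgal, Itgav and Itgb7) passed the threshold in all 14 alternatives. The rises did not: the 2 became 0 with library totals and with upper quartile factors, 0 to 1 with 1 library left out, and 1 without both Asrij low replicate 3 and Asrij high replicate 2. Itga5 was at 0.42 and 0.43 under those 2 scalings (adjusted p = 0.203 and 0.136), 0.45 without both libraries (0.143) and 0.49 to 0.94 with 1 left out. Itgb1 was at 0.48 under both scalings (0.0651 and 0.0529) and 0.62 to 0.95 with 1 left out. Itgb2 passed under both scalings (-0.96 and -0.97, adjusted p = 0.033 and 0.0427) and ran from -1.13 to -0.47 with 1 left out. Itga4 turned to -0.085 and -0.080 under them. Library totals and upper quartile factors shifted the median over all genes by -0.27 each (log2), and the higher share of calls from 55.1% to 40.2% and 39.9%. DESeq2 gave a shift of -0.19 and a share of 47.9%, but over 25045 genes in place of 21445. Its size factors used in edgeR, over the same 21445 genes, moved them by -0.05 and to 51.6%. With limma-voom the median moved by 0.11. Without both libraries Itgam was at 0.37, and with 1 left out at -1.12 to 0.050. Vcam1 was at 0.28 without both, and at -0.72 to 0.19 with 1 left out. The other family chains had 0 rises with library totals, upper quartile factors, no count filter or both libraries left out, and 0 to 1 with 1 left out. The list of genes that switch integrins on or off or link them to actin had 3 rises with library totals and with upper quartile factors. With 1 library left out, it had 3 to 7 rises and 12 to 18 falls. Ligand falls ran from 11 to 20 with 1 left out. The Itga5 to Itgb1 and Itgam to Itgb2 ratios ran from -0.20 to 0.26 and from -0.0014 to 0.59. The cause was not tested.

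Correlations of deviations were 0.0126, 0.046 and 0.225 for same-numbered libraries of the groups and -0.158 to 0.0997 for the other pairs. With 3 libraries a group, these values cannot show whether libraries of the same number are paired. With the replicate number as a block, 2 chains rose and 6 fell, the added one being Itgb2 (-0.71, adjusted p = 0.0249), and 8088 genes in all were called in place of 8452. Depth limits low genes most in Asrij low, where Itgae had 2 counts in replicate 2.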
